A study of Mus musculus with 6 samples.

Results

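The Toll-like receptors are the family of membrane proteins with which innate immune cells and some epithelial cells sense microbial molecules. Their transcripts were read here in livers of mice after vertical sleeve gastrectomy (VSG, in which the greater part of the stomach is cut away) or after a sham operation. The table of 55385 genes held 12 mouse Toll-like receptor genes, and 10 of them form the set described: Tlr1, Tlr2, Tlr3, Tlr4, Tlr5, Tlr6, Tlr7, Tlr9, Tlr12 and Tlr13. The members were chosen by name, in a list drawn up with the VSG against sham differences of these same libraries known, and no measured cut-off was given for it. Their values are therefore a description, and the adjusted p-values beside them give their place in the fit over all genes. Tlr8 and Tlr11, the mouse family genes outside the list, were read the same way.

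All 6 were male C57BL/6 mice and were fed a high-fat diet (HFD) from 6 to 8 weeks of age for 10 weeks, then operated on, then kept on the HFD for another 12 weeks. Each library came from 1 liver, with 3 sham (sham 1 to 3) and 3 VSG (VSG 4 to 6) livers, so both groups were livers of HFD-fed mice and no lean or unoperated group was measured. Poly(A) RNA from whole tissue was sequenced, so fewer cells of a type and less RNA per cell cannot be told apart in any value below. The libraries held between 22804397 and 24191778 counts assigned to genes, and 3 counts, taken as the floor of detection, amounted to 0.111 to 0.143 CPM (counts scaled to the TMM-adjusted library total). The hepatocyte markers summed to 65766 to 110544 CPM in sham and 49053 to 80662 CPM after VSG, and all 8 of them were detected, as the liver label would have it.

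At the cell surface, Tlr2 pairs with Tlr1 or Tlr6 to bind bacterial lipopeptides, Tlr4 with its partner Ly96 binds lipopolysaccharide handed over by Lbp and Cd14, and Tlr5 binds flagellin. Inside endosomes, Tlr3 binds double-stranded RNA, Tlr7 single-stranded RNA, Tlr9 unmethylated CpG DNA, and Tlr13 a stretch of bacterial ribosomal RNA, while mouse Tlr11 and Tlr12 bind profilin of apicomplexan parasites. Apart from Tlr3, which signals through Ticam1, the family signals through Myd88, and Tlr4 uses both adaptors. In the liver, Kupffer cells (the resident macrophages), other leukocytes, endothelial cells and hepatocytes meet microbial products that arrive with portal blood.

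All 10 members were expressed above the filter on low counts. At an adjusted p threshold of 0.05, 2 of the 10 members fell after VSG (Tlr12 and Tlr5) and none of the 10 rose, beside 14.7% of all 14454 genes tested that changed in either direction, 7.87% that fell and 6.79% that rose. By edgeR's test 3 of the 10 had an unadjusted p under 0.05 (Tlr2 as well), beside 33.9% of all genes, and DESeq2 called those 3, beside 22.7% of all genes. At this size of list, 2 of 10 is near the share of all genes. Tlr12 and Tlr5 were also the 2 members whose sham and VSG livers did not overlap in CPM, a property of 39.7% of all genes tested. The median log2 fold change of the members was 0.19, against 0.03 over all genes tested, with 6 members above and 4 below 0.

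**Figure D1:**
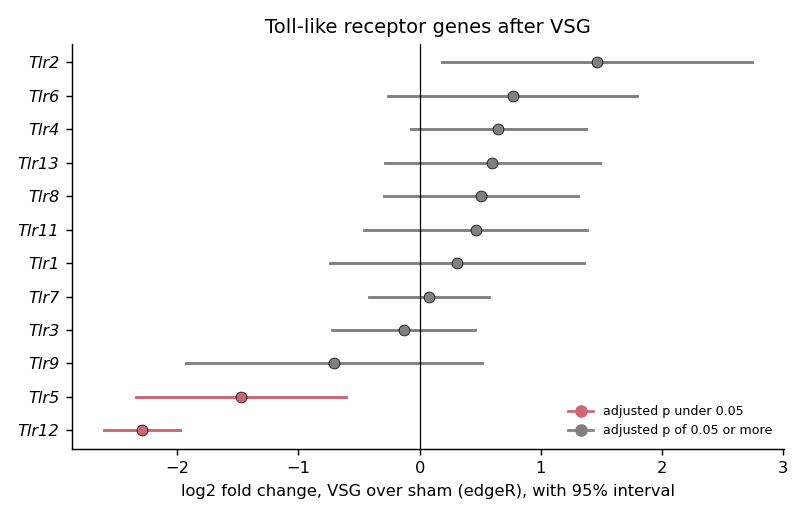
Log2 fold change of the 12 Toll-like receptor genes (horizontal axis, VSG over sham, edgeR) with its 95% interval, 3 livers a group. The intervals of Tlr12 and Tlr5 lie below 0 and that of Tlr2 above 0, with adjusted p of 0.00177, 0.0421 and 0.110, and all others span 0.

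The sequence upstream of the receptors whose values lay farthest from 0 (Tlr12, Tlr5 and Tlr2) is printed first, since the comparison concerns their transcript levels. RefSeq start sites of the GRCm38.p6 assembly were found for 8 of the 10 members, and up to 250 bases before the start are given 5′ to 3′ on the gene's strand. For Tlr2 the stretch stops where the first GENCODE exon begins. Capitals mark matches to the motifs searched, and coordinates cover the printed stretch.
Tlr12 chr4:128618620-128618869: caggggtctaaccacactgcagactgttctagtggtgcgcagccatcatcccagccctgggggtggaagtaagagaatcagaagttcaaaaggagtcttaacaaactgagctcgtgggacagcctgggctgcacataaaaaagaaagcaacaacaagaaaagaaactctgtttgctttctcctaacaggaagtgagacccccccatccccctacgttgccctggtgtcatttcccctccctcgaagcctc
Tlr5 chr1:182954538-182954787: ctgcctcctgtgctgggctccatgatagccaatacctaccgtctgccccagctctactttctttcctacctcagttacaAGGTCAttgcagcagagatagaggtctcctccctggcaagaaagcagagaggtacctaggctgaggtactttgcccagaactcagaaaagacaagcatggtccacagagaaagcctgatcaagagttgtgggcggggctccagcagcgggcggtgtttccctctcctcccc
Tlr2 chr3:83841768-83841858: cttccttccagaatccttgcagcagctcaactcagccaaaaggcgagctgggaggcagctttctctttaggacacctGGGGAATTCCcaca

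On both strands of the windows, 9 sets of letters were searched. They were an NF-kB-like pattern (GGG, any 3 bases, TTCC, in 4.65% of all 32851 promoter windows of this length), AP-1 TGANTCA (6.75%), PU.1 GAGGAAG (10.6%), STAT TTCNNNGAA (7.02%), C/EBP TTNNGCAA (9.56%), HNF1 GTTAAT (6.43%), HNF4 CAAAGTCCA (0.384%), FoxO GTAAACA (3.17%) and the nuclear receptor element AGGTCA (14.0%). Tlr2 held the NF-kB-like letters GGGGAATTCC, at positions -173 to -164 counted from its RefSeq start. Its window also held AGGTCA on the opposite strand at positions -15 to -10, past the printed stretch. Tlr5 held AGGTCA at positions -171 to -166. None of the letters searched were found in the 250 bases before Tlr12, which says nothing about what binds there. The NF-kB-like pattern also stood in the window of Tlr3 (GGGAGTTTCC) and in a window of Tlr6 (GGGTAATTCC). AGGTCA stood in that of Tlr9, on the opposite strand. Tlr3, Tlr6 and Tlr9 did not pass the test, so neither pattern was particular to Tlr2 or Tlr5.

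Tlr12 had the highest level per length of the family in sham livers and fell after VSG to a middle place. It is read from 1 exon of 3177 bases at chr4:128615443-128618619 (minus strand, GRCm38, GENCODE M21). Its level was 35.1, 33.6 and 36.9 CPM in sham 1, 2 and 3, and 7.38, 6.11 and 8.16 CPM in VSG 4, 5 and 6. The 3 sham livers lay close together and each stood far above each VSG liver. The mean CPM was 4.88-fold lower after VSG (fitted log2 fold change -2.29, SE 0.131, 95% interval -2.60 to -1.975, adjusted p = 0.00177, n = 3 a group), with rank 4 of 14454 by p. Under the 13 alternatives of test, scaling, filter and library the log2 fold change stayed between -2.44 and -1.89, with adjusted p of 0.0173 or less.

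Tlr5, the flagellin receptor (chr1:182954788-182976044, plus strand, 5 exon blocks), was next to Tlr12 in level per length in sham livers and fell less evenly. It stood at 19.5, 34.1 and 27.6 CPM in sham 1 to 3 and at 5.48, 14.4 and 9.30 CPM in VSG 4 to 6. The groups did not overlap, although the lowest sham liver (sham 1) and the highest VSG liver (VSG 5) came near each other. The mean CPM was 2.78-fold lower after VSG (fitted log2 fold change -1.47, SE 0.365, 95% interval -2.34 to -0.60, adjusted p = 0.0421). The call was lost in 5 of the 6 fits that left out 1 library, with an adjusted p of 0.0554 without sham 1, 0.110 without sham 2, 0.137 without sham 3, 0.0633 without VSG 4 and 0.136 without VSG 6. It held without VSG 5 (0.0179), and the log2 fold change ran from -1.89 to -1.15 over all alternatives.

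Among the surface receptors for lipopeptides, Tlr2 had the largest positive change of the members, carried mainly by VSG 4 and VSG 6. Tlr2 (chr3:83836272-83841767, minus strand, 3 exon blocks) was read at 15.5, 6.85 and 10.8 CPM in sham 1 to 3. In VSG 4 to 6 it was read at 51.8, 11.9 and 27.9 CPM. VSG 5 lay inside the sham range and the other VSG livers above it. The mean CPM was 2.76 times that of sham (fitted log2 fold change 1.46, SE 0.538, 95% interval 0.18 to 2.74), and the adjusted p of 0.110 missed the threshold. Without VSG 4 the log2 fold change was 0.84 (adjusted p = 0.259), and without VSG 5 it was 1.82 (adjusted p = 0.0272). DESeq2 also placed Tlr2 past the threshold, with adjusted p = 0.0272.

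The partners of Tlr2 did not pass the test. Tlr1 stood at 8.83, 3.75 and 6.31 CPM in sham 1 to 3 and at 12.3, 4.36 and 6.87 CPM in VSG 4 to 6, with overlapping groups (log2 fold change 0.31, 95% interval -0.74 to 1.36, adjusted p = 0.644). Tlr6 stood at 2.47, 1.42 and 1.06 CPM in sham and at 3.71, 1.58 and 3.20 CPM after VSG, where only VSG 5 lay within the sham range (log2 fold change 0.77, 95% interval -0.26 to 1.798, adjusted p = 0.251). Tlr1 and Tlr6 lie near each other on chromosome 5 (64924679 to 64933563 and 64952031 to 64960097) and are close relatives. Of all 50-base stretches of their exons, 15.4% of Tlr1 and 12.3% of Tlr6 also occur in another gene, most of them in each other, so their counts are less certain than those of Tlr2, Tlr5 or Tlr12, where the share was 0. The sign of Tlr1 was not stable, with a log2 fold change of -0.17 without VSG 4.

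Tlr4, the lipopolysaccharide receptor (chr4:66827584-66930284, plus strand), did not pass the test. It was read at 6.72, 3.65 and 5.96 CPM in sham 1 to 3 and at 11.6, 6.45 and 7.68 CPM in VSG 4 to 6. VSG 5 lay just under the highest sham liver and the other VSG livers lay above it. The log2 fold change was 0.65 (SE 0.303, 95% interval -0.07 to 1.37, adjusted p = 0.182), and 0.37 without VSG 4 or 0.43 without sham 2.

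The endosomal receptors for nucleic acids showed no called change. Tlr3 stood at 21.4, 11.5 and 12.2 CPM in sham 1 to 3 and at 14.5, 12.7 and 14.0 CPM in VSG 4 to 6, and sham 1 alone was set apart, above all others (log2 fold change -0.13, 95% interval -0.72 to 0.46, adjusted p = 0.731). Without sham 1 its log2 fold change was 0.21. Tlr3 (chromosome 8, 45395665 to 45411080) has 381 exon bases opposite the exons of Gm45542, and how strand was used in counting is not given in the sources used here. Tlr7 was the most even member, at 9.23, 7.26 and 9.12 CPM in sham and 10.6, 6.63 and 9.87 CPM after VSG (log2 fold change 0.08, 95% interval -0.42 to 0.58, adjusted p = 0.811), and its sign changed with scaling to library totals (-0.08) and without sham 2 (-0.03) or VSG 4 (-0.05).

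Tlr9 was among the scarcest members. It was read at 3.03, 1.64 and 2.81 CPM in sham 1 to 3 and at 2.67, 0.641 and 1.29 CPM in VSG 4 to 6, so that VSG 5 and VSG 6 lay below every sham liver and VSG 4 among them. Its log2 fold change of -0.71 had a 95% interval of -1.93 to 0.52 (adjusted p = 0.363), and moved to -1.38 without VSG 4 and to -0.36 without VSG 5. Tlr13, the sensor of bacterial ribosomal RNA, stood at 14.0, 7.45 and 11.3 CPM in sham and 25.6, 10.3 and 13.8 CPM after VSG. VSG 4 stood above all other livers, and the log2 fold change of 0.60 (95% interval -0.29 to 1.49, adjusted p = 0.294) was 0.14 without that liver, 0.39 without sham 2.

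The family genes outside the list did not pass the test either. Tlr8 stood at 4.25 to 7.68 CPM in sham and 5.56 to 12.3 CPM after VSG (log2 fold change 0.51, adjusted p = 0.320). Tlr11, which shares its profilin ligand with Tlr12, was at 0.418 to 0.776 CPM in sham and 0.513 to 0.954 CPM after VSG (log2 fold change 0.46, adjusted p = 0.427), between 11 and 21 reads a library. Tlr11 was above the floor of 3 counts in every library.

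To compare receptors with each other, counts were divided by gene length and by the TMM-scaled library total (FPKM). In sham livers the order ran Tlr12 (11.1 ± 0.521 FPKM, mean ± SD, n = 3), Tlr5 (5.65 ± 1.52), Tlr2 (3.67 ± 1.43), Tlr3 (2.88 ± 1.07), Tlr13 (2.53 ± 0.761), Tlr7 (2.09 ± 0.271), Tlr1 (1.88 ± 0.759), Tlr8 (1.74 ± 0.497), Tlr4 (0.980 ± 0.288), Tlr9 (0.717 ± 0.214), Tlr6 (0.443 ± 0.197) and Tlr11 (0.177 ± 0.0553). Only the neighbours Tlr12 and Tlr5, and Tlr6 and Tlr11, had ranges that did not overlap. Within single livers, Tlr2 stood above Tlr3, Tlr8 above Tlr4, Tlr4 above Tlr9 and Tlr9 above Tlr6 in 3 of 3 sham livers, and the other neighbours kept their order in 1 or 2 of 3.

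In VSG livers the order by mean FPKM was led by Tlr2 (10.1 ± 6.67 FPKM), followed by Tlr13 (3.85 ± 1.86), Tlr3 (2.63 ± 0.185), Tlr8 (2.49 ± 0.935) and Tlr1 (2.34 ± 1.21). Tlr12 stood sixth there at 2.27 ± 0.325 FPKM, before Tlr7 (2.21 ± 0.517), Tlr5 (2.03 ± 0.940), Tlr4 (1.54 ± 0.482), Tlr6 (0.759 ± 0.298), Tlr9 (0.441 ± 0.298) and Tlr11 (0.246 ± 0.0774). Of all neighbours in this order, only Tlr4 and Tlr6 had separate ranges, although Tlr2 stood above Tlr13, Tlr6 above Tlr9 and Tlr9 above Tlr11 in 3 of 3 VSG livers. Summed over the 10 members, the level was 31.9 ± 3.49 FPKM in sham and 28.2 ± 10.6 FPKM in VSG livers. Within that sum, the share of Tlr12 was 34.9% ± 3.18 in sham livers and 8.64% ± 2.43 after VSG, that of Tlr5 18.2% ± 6.79 and 8.85% ± 6.89, and that of Tlr2 11.2% ± 3.27 and 33.2% ± 11.1. The shares of 5 of the 10 members did not overlap between groups: that of Tlr12 was lower after VSG, and those of Tlr2, Tlr4, Tlr6 and Tlr13, whose CPM overlapped, were higher. Of all genes tested, 3.13% were lower and 18.3% higher with no overlap when divided by the same sum. Shares add up to a fixed whole, so a lower share of Tlr12 and Tlr5 raises those of the others at unchanged levels. The sum of the levels overlapped between groups.

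**Figure D2:**
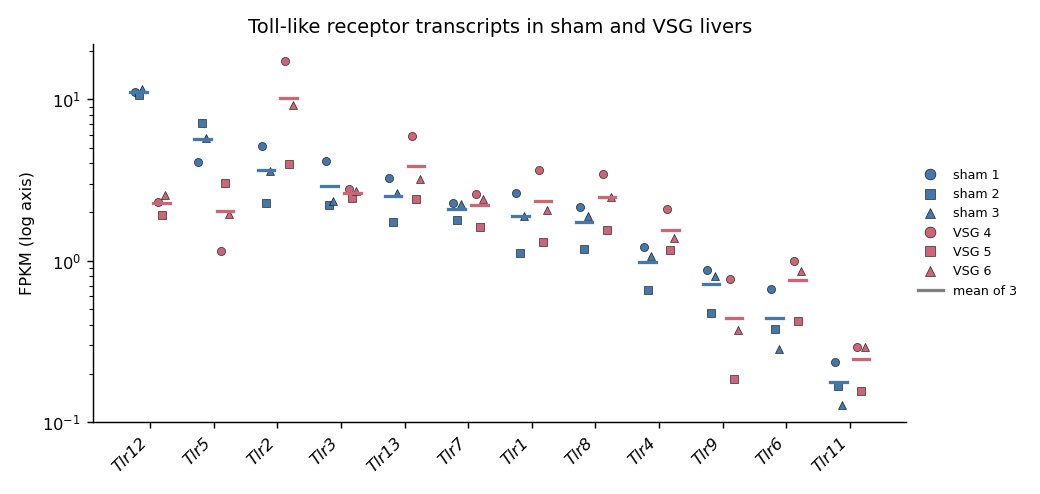
Level per length (FPKM, log axis) of the 12 Toll-like receptor genes in each liver, ordered by the sham mean, with blue for sham, red for VSG, a marker shape for each library and a bar for the mean of 3. Tlr12 separates the groups widely (11.1 against 2.27 FPKM), Tlr5 narrowly, and the other genes overlap.

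Most members were high or low in the same livers within a group. Among sham livers, sham 1 was the highest for 8 of the 10 members and sham 2 the lowest for 8, and among VSG livers, VSG 4 was the highest for 8 and VSG 5 the lowest for 9. Tlr5 ran the other way, highest in sham 2 and VSG 5. Macrophage markers followed the same order of livers: the 12 markers summed to 1232, 553 and 833 CPM in sham 1 to 3 and to 3154, 1115 and 1989 CPM in VSG 4 to 6. The order was not particular to macrophages. Neutrophil markers (23.3, 7.77 and 11.4 CPM, then 1923, 167 and 895 CPM) shared it. So did monocyte markers (58.1, 25.1 and 48.5 CPM, then 289, 42.9 and 137 CPM). Hepatocyte markers ran in the reverse order (65766, 110544 and 70432 CPM, then 49053, 80662 and 77924 CPM). All 12 macrophage markers were detected, and 4 of the 12 rose (Clec4f, Vsig4, Timd4 and Marco), while none fell, beside 6.79% of all genes tested that rose and 7.87% that fell.

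Set against the sum of the macrophage markers, Tlr2 did not separate the groups. Tlr2 was at 12.6, 12.4 and 12.99 CPM per 1000 CPM of macrophage markers in sham 1 to 3, and at 16.4, 10.7 and 14.0 in VSG 4 to 6, while its CPM had spanned a wide range. Tlr12 stayed apart on this scale, at 28.5 to 60.8 in sham and 2.34 to 5.48 in VSG livers, as did Tlr5, at 15.9 to 61.6 and 1.74 to 12.96. The sum rose from a mean of 873 to 2086 CPM, so division by it lowers any gene that stayed level, and 33.1% of all genes tested were lower after VSG with no overlap on this scale and 1.47% higher. Of the 10 members 7 were lower in this way, of which Tlr1, Tlr3, Tlr7, Tlr9 and Tlr13 overlapped in CPM and came apart only after the division, while Tlr2, Tlr4 and Tlr6 overlapped on both scales. With Marco left out of the sum the members split in the same way, beside 24.6% of all genes tested that were lower and 1.92% higher, and Tlr2 stood at 12.5 to 13.1 in sham and 11.7 to 21.01 in VSG livers. The part of the macrophage markers in the receptors' values was not tested.

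**Figure D3:**
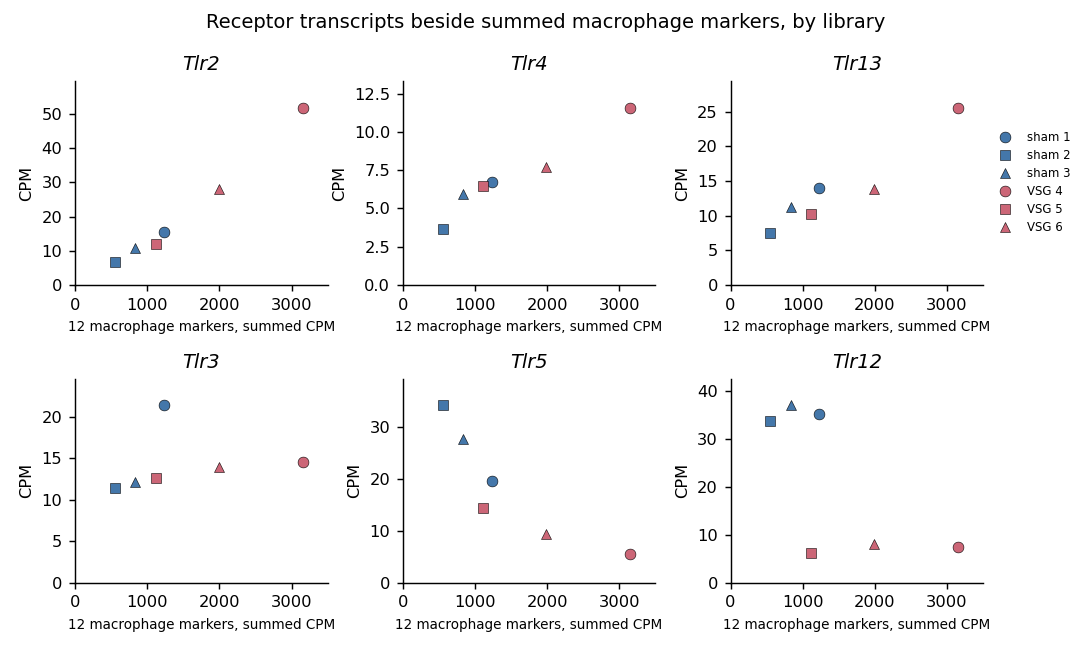
CPM of 6 receptors (vertical axes, from 0) against the summed CPM of 12 macrophage markers (horizontal axis) in each liver. Tlr2 climbs with the markers from 6.85 to 51.8 CPM, Tlr5 descends from 34.1 to 5.48 CPM, and Tlr12 lies on 2 levels by group.

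Markers of other cell types were read against the same shares of all genes (6.79% rose, 7.87% fell). All 13 of 13 neutrophil markers rose, with a sum of 7.77 to 23.3 CPM in sham and 167 to 1923 CPM after VSG, highest in VSG 4 and lowest of the VSG livers in VSG 5. Of 7 monocyte markers 2 rose (sum 25.1 to 58.1 CPM in sham, 42.9 to 289 CPM in VSG), and the sums overlapped, with VSG 5 inside the sham range. Of the 8 B cell markers only Ighm rose, which carried a sum of 23.2 to 33.5 against 134 to 179 CPM. Dendritic cell markers, a cell type known for Tlr9 and Tlr12, summed to 18.5 to 20.97 CPM in sham and 18.2 to 20.3 CPM after VSG. Of the 7 tested, 4 had a positive and 3 a negative log2 fold change (median 0.04). Siglech, a plasmacytoid dendritic cell marker, was the 1 of 7 that fell (log2 fold change -1.77, adjusted p = 0.0397), and none rose. Endothelial markers (317 to 388 against 327 to 407 CPM) and T and NK cell markers (5.85 to 6.43 against 4.49 to 11.4 CPM) overlapped, with none called. Biliary markers overlapped as well (161 ± 98.6 against 139 ± 63.3 CPM, mean ± SD), and 1 of 5 tested rose. Stellate cell markers ran from 647 to 1024 CPM in sham and 318 to 628 CPM after VSG. Of these 8 markers all had a negative log2 fold change, and 1 fell past the threshold. The part of these cell types in the receptor values was not tested.

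The genes whose pattern over the 6 livers was most like each member's were found by the smallest root mean square difference of centred log2 CPM among 12905 genes. For Tlr12 these were Aqp8, a water channel (0.13), S100a10 (0.19) and Spc24, a kinetochore protein (0.21), and Tlr12 itself spanned 2.58 on the log2 scale. Aqp8 went from a mean of 89.0 CPM in sham to 16.7 CPM after VSG. For Tlr5 they included Lpin2, a phosphatidate phosphatase (0.08), and Sucnr1, the succinate receptor (0.11). Lpin2 went from 565 to 204 CPM.

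For Tlr2 the nearest genes were G6pdx, the entry enzyme of the pentose phosphate pathway (0.11), Coro1a, a leukocyte actin regulator (0.12), and Myo1g, a myosin of blood cells (0.13). For Tlr13 they were S1pr2, Tmsb4x and Inpp5d (0.05 to 0.07), for Tlr4 Plekhm3, Abcc5 and Mgat4a (0.05 to 0.07), and for Tlr1 Cip2a, Pak1 and Pkib (0.06 to 0.09). For Tlr3 they were Ncoa7, Tpm4 and Myh10 (0.09 to 0.12), for Tlr6 Ulbp1, Nfkbid and Smc4 (0.11 to 0.16), for Tlr7 Psmd10, Cnpy4 and Aen (all 0.06), and for Tlr9 they included Chaf1a and Timp1 (0.08 and 0.18). These differences compare 6 points that share their libraries and are a description.

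The rest of the pathway was read from 6 lists of 127 genes, of which 117 were tested. Of these, 12 rose and 5 fell, 14.5% in all against 14.7% of all genes tested, with a median log2 fold change of 0.22. The count depended on single libraries: it was 15 without sham 1, 7 without sham 2, 4 without sham 3, 9 without VSG 4, 2 without VSG 6 and 32 without VSG 5. The count over all genes moved as well. It was 2118 with all libraries, and 1214, 797, 159, 1076, 210 and 2732 in these fits, in the order named. Tirap and Cd36 kept their call in all 13 alternatives. With scaling to library totals, which moved the median of all genes to -0.11, 8 pathway genes rose and 9 fell.

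**Figure D4:**
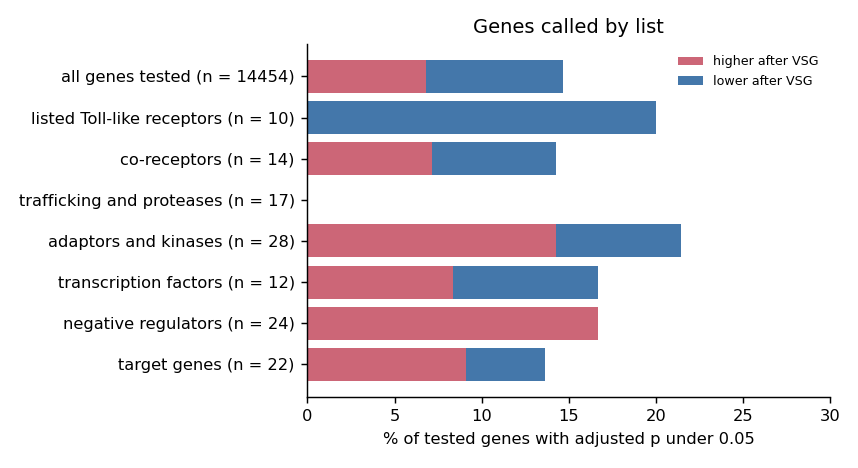
Percent of tested genes called higher (red) or lower (blue) after VSG, for all genes, the listed receptors and 6 pathway lists (n tested in brackets). The pathway lists range from 0 of 17 trafficking genes to 6 of 28 adaptors and kinases, beside 14.7% of all genes.

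Among 14 co-receptors and ligand carriers, 1 rose and 1 fell (14.3% in all, beside 14.7% of all genes tested, median log2 fold change 0.10). Lbp, the plasma protein that carries lipopolysaccharide to Cd14, rose from 137, 128 and 152 CPM in sham 1 to 3 to 548, 275 and 497 CPM in VSG 4 to 6. Every VSG liver stood above every sham liver (log2 fold change 1.66, adjusted p = 0.0155), though the adjusted p was 0.0504 without sham 2, 0.0785 without sham 3 and 0.0677 without VSG 6. Cd36, a fatty acid and lipopeptide scavenger receptor, fell from 433, 518 and 516 CPM to 181, 120 and 120.2 CPM (log2 fold change -1.80, adjusted p = 0.00732).

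Cd14, the lipopolysaccharide co-receptor of Tlr4 and Tlr2, was the most uneven of the co-receptors. It was at 12.6, 6.12 and 8.81 CPM in sham 1 to 3 and at 429, 10.0 and 102 CPM in VSG 4 to 6. VSG 5 lay within the sham range while VSG 4 and VSG 6 lay many times above it (log2 fold change 4.29, adjusted p = 0.0590). It passed the threshold with DESeq2 (adjusted p = 0.00419), without the low-count filter (0.0192) and without VSG 5 (0.00965). Ly96, the obligate partner of Tlr4, stood at 3.61 to 4.95 CPM in sham and 4.06 to 5.29 CPM after VSG (log2 fold change 0.15), with overlapping groups. Cd180 and Ly86, a receptor pair related to Tlr4 and Ly96, had log2 fold changes of 0.04 and 0.05, with a sign that turned under some settings.

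None of the 17 genes for receptor trafficking and processing passed edgeR's test, 4 of them were at an unadjusted p under 0.05 (33.9% of all genes were), DESeq2 called 3 of the 17 (22.7% of all genes) and limma none, with a median log2 fold change of 0.14. Unc93b1, the chaperone that carries endosomal receptors, stood at 37.1 to 57.8 CPM in sham and 40.2 to 76.2 CPM after VSG (log2 fold change 0.27, adjusted p = 0.499). Cnpy3, a folding helper of several receptors, had a log2 fold change of -0.05 (adjusted p = 0.746), and Hsp90b1, its partner in the endoplasmic reticulum, 0.64 (adjusted p = 0.0759). Hsp90b1 passed with DESeq2 (adjusted p = 0.0104) and without VSG 5 (0.0321).

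Of 28 adaptors and kinases tested, 4 rose and 2 fell (21.4% in all, beside 14.7% of all genes tested, median 0.15). Tirap, the adaptor that brings Myd88 to Tlr2 and Tlr4, rose from 22.8, 20.8 and 19.7 CPM in sham 1 to 3 to 41.0, 39.2 and 38.1 CPM in VSG 4 to 6, with little spread in either group (log2 fold change 0.90, adjusted p = 0.00645). Tab2, a partner of the kinase Map3k7, rose by 0.83 (adjusted p = 0.0155). Ripk1, a kinase on the Ticam1 branch, rose by 0.49 (adjusted p = 0.0191). Myd88 itself was at 21.97, 17.7 and 17.5 CPM in sham and 38.1, 24.0 and 31.5 CPM after VSG, with every VSG liver above the sham range (log2 fold change 0.71, adjusted p = 0.0495).

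Myd88 sat at the threshold. Its adjusted p was 0.0595 with limma-voom, 0.0627 on the FPKM scale, 0.132 with library totals, 0.0673 without sham 1, 0.131 without sham 2, 0.174 without sham 3, 0.1002 without VSG 4 and 0.136 without VSG 6. Tab2 lost its call without sham 3 (0.0805) and VSG 6 (0.0680), and Ripk1 with library totals (0.151) and without sham 2 (0.0615), sham 3 (0.0954) and VSG 6 (0.0763).

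The adaptors of the interferon branch did not pass. Ticam1, the adaptor of Tlr3 and Tlr4, stood at 16.5, 19.4 and 21.01 CPM in sham 1 to 3 and at 18.7, 17.4 and 14.3 CPM in VSG 4 to 6 (log2 fold change -0.17, adjusted p = 0.427). Ticam2, which links Ticam1 to Tlr4, stood at 1.25 to 1.99 CPM in sham and 1.67 to 4.75 CPM after VSG (log2 fold change 1.08, adjusted p = 0.123, and 0.0350 without VSG 5). The kinases Map2k6 and Map2k3, which activate p38, fell by 1.63 and 0.54 on the log2 scale (adjusted p = 0.0230 and 0.0390), and both calls were lost without sham 2, sham 3, VSG 4 or VSG 6 (adjusted p of up to 0.0937 and 0.132).

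Of 12 transcription factors, 1 rose and 1 fell (16.7% in all, beside 14.7% of all genes tested, median 0.29). Irf5, a factor activated downstream of Myd88, was at 17.5, 9.14 and 11.5 CPM in sham 1 to 3 and at 25.7, 26.3 and 24.1 CPM in VSG 4 to 6 (log2 fold change 0.995, adjusted p = 0.0350). Its call was lost with library totals (0.101) and without sham 2, sham 3, VSG 4, VSG 5 or VSG 6 (up to 0.141). Jun, a subunit of AP-1, fell from 55.2, 101 and 52.2 CPM to 19.5, 19.6 and 20.9 CPM (log2 fold change -1.80, adjusted p = 0.0127, and 0.0638 without VSG 6).

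Negative regulators of the pathway were the list with the highest median of the 6, 0.57, against 0.03 over all genes tested. Of 24 tested 4 rose and none fell, 16.7% in all. Of all genes tested, 14.7% changed in either direction, 6.79% rose and 7.87% fell. These were Bcl3 (log2 fold change 1.54, adjusted p = 0.0291) and Nfkbiz (1.32, 0.0236), nuclear proteins of the inhibitor-of-NF-kB family that can also activate genes, Nfkbib (0.66, 0.0431), a cytoplasmic inhibitor, and Tnip2 (0.64, 0.0317), a partner of the A20 enzyme Tnfaip3. Bcl3 stood at 23.3, 11.1 and 16.4 CPM in sham 1 to 3 and at 60.4, 32.4 and 55.6 CPM in VSG 4 to 6. All 4 calls were lost without sham 2, sham 3 or VSG 6, and those of Bcl3, Nfkbib and Tnip2 also without VSG 4, with adjusted p of up to 0.123, 0.110, 0.160 and 0.130 in the order named. Those of Nfkbib and Tnip2 were lost without sham 1 and with library totals too, and that of Nfkbib with limma-voom (0.0521) and on the FPKM scale (0.0513).

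Other genes of this list missed the threshold. Irak3, an inactive kinase that blocks Myd88 signalling, stood at 8.90, 3.29 and 4.10 CPM in sham 1 to 3 and at 42.4, 8.63 and 24.7 CPM in VSG 4 to 6, with VSG 5 just under the highest sham liver (log2 fold change 2.21, adjusted p = 0.0595). Like Cd14, it passed with DESeq2 (0.00158), without the low-count filter (0.0216) and without VSG 5 (0.0176). Tollip (-0.27) and Sigirr (0.24), which dampen receptor complexes, and Nfkbia (0.48, adjusted p = 0.328) had small log2 fold changes, and Tnfaip3 had 1.20 (adjusted p = 0.194, and 0.0214 without VSG 5).

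**Figure D5:**
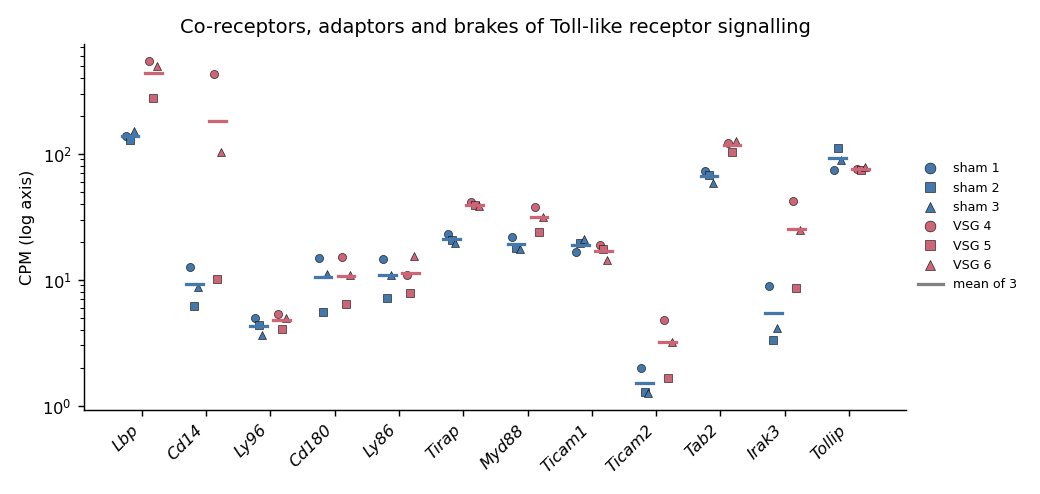
CPM (log axis) of 12 pathway genes in each liver, with blue for sham, red for VSG and a bar for the mean of 3. Tirap, Tab2, Lbp and Myd88 separate the groups, Cd14 spans 6.12 to 429 CPM with VSG 5 among the sham livers, and Ly96, Cd180, Ly86 and Ticam1 overlap.

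Of 30 target genes of the pathway 22 were tested, of which 2 rose and 1 fell (13.6% in all, beside 14.7% of all genes tested, median 0.23). Cxcl1, a chemokine for neutrophils, rose from 17.0, 9.23 and 13.3 CPM in sham 1 to 3 to 350, 28.9 and 121 CPM in VSG 4 to 6 (log2 fold change 3.66, adjusted p = 0.0360). Il1b rose from 2.42 to 5.72 CPM in sham to 8.21 to 17.8 CPM after VSG (1.90, adjusted p = 0.0314). Cxcl10, an interferon-induced chemokine, went the other way, from 25.4, 14.1 and 12.8 CPM to 4.52, 3.85 and 4.34 CPM (-2.04, adjusted p = 0.0114). Tnf was at 0.411 to 0.923 CPM in sham and 0.769 to 3.03 CPM after VSG (1.06, adjusted p = 0.258).

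The 3 target calls depended on libraries to unequal degrees. Cxcl10 lost its call only without VSG 6 (0.0596). Il1b lost its call without sham 2, sham 3, VSG 4 or VSG 6 (up to 0.129). Cxcl1 lost its call with limma-voom (0.0607), on the FPKM scale (0.0678), and without any library but VSG 5 (up to 0.141).

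Receptors related to the family were set beside it, to be read against 6.79% of all genes tested that rose and 7.87% that fell. Of 5 tested interleukin-1 receptor relatives, which share the intracellular domain and Myd88 with Toll-like receptors, 2 rose, namely Il1r1 (56.2, 90.5 and 80.0 CPM in sham, 801, 205 and 439 CPM after VSG, log2 fold change 2.67, adjusted p = 0.0212) and Il18r1 (1.46, adjusted p = 0.0212). Of 31 other sensors of microbes 3 rose, the peptidoglycan-binding neutrophil protein Pglyrp1 (4.83, 0.0339), the lectin Clec4e (1.95, 0.0336) and the macrophage mannose receptor Mrc1 (0.55, 0.0233), and the RNA sensor Dhx58 fell (-1.36, 0.0114). These 4 calls were 12.9% of that list, under the 14.7% of all genes tested. Each of the 6 calls in both lists was lost without sham 3 or VSG 6, and all but that of Dhx58 without further libraries, with adjusted p of up to 0.0998, 0.107, 0.138, 0.123, 0.111 and 0.0604 in the order named. Pglyrp1 also lost its call with limma-voom (0.165) and on the FPKM scale (0.104), Clec4e on the FPKM scale (0.0534) and Mrc1 with library totals (0.107). A filter of 10 counts in every library removed Pglyrp1, so it had 12 alternatives and its fold change includes at least 1 library below that count.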

How the data were processed

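Strand-specific poly(A) libraries were made from liver tissue, 3 sham and 3 VSG. Reads were checked with FastQC 0.10.1, aligned to mm10 with STAR 2.6.0 and counted per gene with featureCounts (version 2.0.3 per the labels) by the authors, who deposited raw counts with gene lengths. Strand and multimapping options are not given in the sources used here. Identifiers were matched to GENCODE M21 (54487 of 55385 with identical version and coordinates).

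The quasi-likelihood test of edgeR 4.0.16 (R 4.3.3) was run on the deposited counts with TMM scaling (factors 0.897 to 1.15), filterByExpr (minimum count 10, minimum total 15), Benjamini-Hochberg adjustment over 14454 genes, threshold 0.05, group as the only term. CPM use TMM-scaled totals, and intervals are 95%. Scripts were tested on simulated data.

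The members and lists were chosen with earlier results of these data known. Named genes were all members, Tlr8 and Tlr11, up to 5 called genes a direction of each list, 17 pathway genes fixed by name, and the 3 genes most like each member (mean of at least 1 CPM), of which some are not reported here. Tnf and the cell type markers were named after their values were seen. Alternatives were DESeq2 1.42.0, limma 3.58.1 (voom, or log2(FPKM + 1)), other scalings and filters, and leaving out each library. Leaving Marco out of the macrophage sum was added after seeing the data. P-values set the difference between groups against the spread between livers, 3 a group, with the estimate of spread moderated over all genes tested.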

Additional observations from a re-analysis of the deposited data

How the results depend on the processing

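No paired analysis was possible because sham livers are numbered 1 to 3 and VSG livers 4 to 6, with no shared number. Over 13 alternatives, the members' log2 fold changes kept direction and side of the threshold in 118 comparisons, lost the call in 5 (Tlr5), gained it in 2 (Tlr2) and changed sign in 5. The other named genes did so in 393, 95, 10 and 8. All genes changed numbered 2118, against 3288 with DESeq2 and 159 to 2732 when 1 library was left out. The 2 called receptors became 3 with DESeq2 and 1 to 3 without 1 library. The 17 pathway calls became 36 with DESeq2, 29 without the low-count filter and 2 to 32 without 1 library. The causes were not tested, and the fits that leave a library out also hold fewer samples.

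Signs turned for 7 named genes, whose log2 fold changes when 1 library was left out ran from -0.17 to 0.63 for Tlr1, -0.30 to 0.21 for Tlr3, -0.0513 to 0.24 for Tlr7, -0.28 to 0.36 for Cd180, -0.23 to 0.31 for Ly86, -0.0125 to 0.44 for Unc93b1 and -0.12 to 0.0171 for Cnpy3. With library totals they were -0.0812 for Tlr7, -0.15 for Cd180 and -0.14 for Ly86. With library totals the share of calls that were higher moved from 46.3% to 24.3%. The 3 animals a group limit what can be called, and an exact permutation test of 1 gene could not go below p = 0.1. Counts of 11 to 21 reads a library, as for Tlr11, are the least precise.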
